A study of Mus musculus with 2 samples.

Results

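The genes examined were 10 members of the Myc, Max and Mxd transcription factor network, out of 15623 genes listed in 1 or both libraries. They were chosen by name (Myc, Mycn, Mycl, Max, Mxd1, Mxi1, Mxd4, Mnt, Mga and Mlx) and found through their gene numbers. Each of the 10 was listed in at least 1 library, and all except Mycn were listed in both. RNA was sequenced from peritoneal macrophages that had been elicited with thioglycollate in wild-type C57BL/6 mice of 6 to 8 weeks of age. Such cells enter the peritoneum after an irritant is injected and are kept by adherence, and here they were starved in low serum before stimulation. One library came from nontreated cells (NT), and the other came from cells given IL-4, the cytokine that drives M2 polarization, for 6 h at 20 ng/mL. With 1 library in each group, every test below compares the reads of the libraries and not the conditions, and no difference could be set against the spread between animals.

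Myc, Mycn and Mycl are basic helix-loop-helix leucine zipper proteins that bind DNA only as dimers with Max. Myc-Max dimers bind the E-box CACGTG and activate genes of ribosome production, metabolism and the cell cycle. Mxd1, Mxi1, Mxd4 and Mnt compete for Max, bind the same E-box and recruit the Sin3 corepressor with its histone deacetylases. Mga also pairs with Max and sits in a Polycomb-type repressor complex. Mlx, a relative of Max, pairs with some Mxd proteins, with Mnt and with the glucose-responsive factors encoded by Mlxip and Mlxipl. In macrophages Myc is known as a gene of alternative activation.

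The E-boxes of the members' own promoters are shown because CACGTG is the element that the network binds. The promoter table, from RefSeq on GRCm38.p6, runs from 250 bases before to 50 bases after each start, and it held 11 promoters of 9 members. Myc had no entry. The letters CACGTG, which read the same on both strands, were found in 4 of these 11 promoters (Mxd4, Mnt, Mlx and Max) and in 7.15% of all 32851 promoters of this length. Counted by gene, 4 of 9 members held one, as did 1333 of the 12171 tested genes in the table. The sites lie at -219, -123, -40 and -3 from the start in that order, counted to the first base of the E-box, where 0 is the start base the table uses. That start lies inside the annotated gene for Mnt, Mlx, Max, Mxi1 and Mga. The genes of Mxi1 and Mga begin far upstream of it, at 53310128 and 119872503, so their matches below lie by internal starts. The E-box is in capitals with 10 bases on each side, on the strand of the gene.
Mxd4, chr5:34187914-34187939, minus strand: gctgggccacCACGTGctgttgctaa
Mnt, chr11:74830791-74830816, plus strand: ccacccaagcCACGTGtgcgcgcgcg
Mlx, chr11:101087240-101087265, plus strand: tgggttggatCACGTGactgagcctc
Max, chr12:76962236-76962261, minus strand: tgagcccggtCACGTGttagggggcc
The letters TTC and GAA with 4 bases between them, the form of element that Stat6 prefers and also the same on both strands, were found in 2 of the 11 promoters and in 6.95% of all. They are shown since Stat6 is the factor that IL-4 activates. No CACGTG was found in the listed promoters of Mxi1 or Mga, which hold them.
Mxi1, chr19:53329188-53329217, plus strand, first base at -215: cccaagtcttTTCCTCAGAAgcaaagtcat
Mga, chr2:119897239-119897268, plus strand, first base at 21: gcgcaggctcTTCAGCTGAAgcggacacac
These matches describe the letters of the reference only, since no binding was measured in these files.

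The libraries held 11035641 (NT) and 11250099 (IL-4) expected counts, the RSEM estimates of the reads of each gene, so the lowest abundance that could be shown (3 counts) was 0.272 and 0.267 CPM, counts scaled to a common total. All 5 M2 control genes were called higher, with log2 ratios from 3.33 to 7.95. All 8 macrophage markers were listed, with summed levels of 17095 CPM in NT and 17408 CPM in IL-4. Of the marker lists of other cells, fibroblast genes were the most abundant (4 of 4 listed, 174 and 145 CPM). The lists of B cells (5 of 5 listed), T and NK cells (5 of 5), neutrophils (2 of 5), eosinophils (1 of 3), mast cells (4 of 4), dendritic cells (4 of 4), mesothelium (4 of 4) and bone marrow progenitors (3 of 4) summed to between 0 and 10.3 CPM in either library. Ly6g, S100a9, Retnlg, Epx, Ccr3 and Mpo were listed in neither. Of all the marker genes, Csf1r (macrophage) and Cd34 (progenitor) were called higher and Cd14 (macrophage) and Msln (mesothelium) lower. Over all tested genes, 4.07% were called higher and 6.28% lower. Cd34 rests on 31 counts in NT and 64 in IL-4, and Msln on 12 and 2. The part of such cells in the results was not tested. One label gives the tissue as bone marrow, and the source name of peritoneal macrophages was used.

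Myc was the only member called. NT cells gave 102 expected counts and IL-4 cells 313, and the FPKM of Myc, a level scaled for transcript length and depth, was 3.84 and 11.57. Myc (gene 17869, chromosome 15, 61985341 to 61990361, GRCm38) thus rose, with a log2 ratio of 1.59 and a 95% counting interval from 1.26 to 1.93 (exact binomial test, p = 3.85e-25, Benjamini-Hochberg (BH) adjusted 8.25e-24). Calls, here and below, needed a log2 ratio of 0.75 or more in size, an exact p no higher than 0.05 and a BH-adjusted p no higher than 0.5. In these bulk RNA values, more cells with the transcript and more transcript in each cell cannot be told apart. The call was lost when a biological coefficient of variation of 0.4 was assumed between animals (edgeR exact test, p = 0.0683).

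The other Myc genes were close to undetected. Mycn (chromosome 12, 12936093 to 12941836), known from neural and embryonic tissue, had 1 count in NT and was not listed in IL-4. Mycl (chromosome 4, 122995588 to 123002490), which is used by dendritic cells, had 8 counts in each library, and the 95% interval of its log2 ratio ran from -1.64 to 1.58. Neither was called, and their depth could hardly show a change. Myc made up 94.3% of the summed FPKM of these 3 genes in NT and 98.2% in IL-4.

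Of the 10 members, 1 was called higher and 0 lower, where 4.07% of all 15593 tested genes were called higher and 6.28% lower. Without a limit on size, at a BH-adjusted exact p of at most 0.05, 3 members passed as higher (Myc, Mlx and Max) and 3 as lower (Mnt, Mga and Mxi1). This rule was added after the data were seen, and 14.9% and 17.3% of all tested genes passed it as higher and lower. Among genes with at least 200 reads, which 8 of the 10 members had, the shares were 24.2% and 27%. The rule covers counting error alone, and with an assumed coefficient of variation of 0.1 only Myc passed it. The median log2 ratio of the members was -0.16, beside -0.03 over all tested genes.

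**Figure D1:**
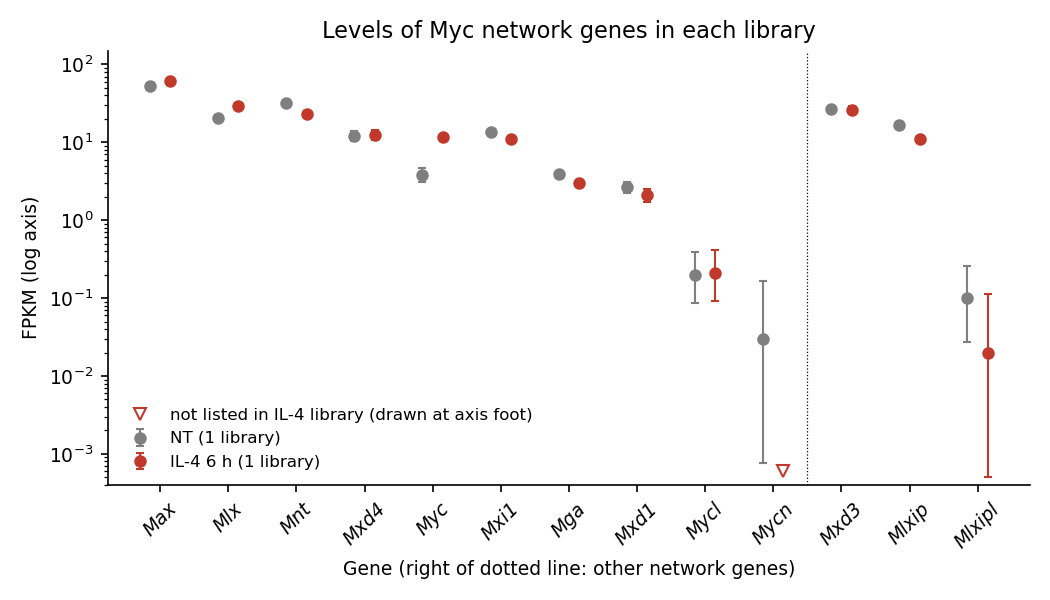
FPKM (log axis) of the 10 members and 3 related genes in the NT library (grey) and the IL-4 library (red), with exact Poisson 95% intervals of the counts. Myc moves from 3.84 to 11.57, beside Mxd4 and Mxi1, while Max stays the most abundant member at 53.59 and 62 and Mycn is not listed in the IL-4 library.

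Max, the partner without which Myc does not bind DNA, was the most abundant member in both libraries. Max (chromosome 12, 76937269 to 76962323) had 1176 counts in NT and 1388 in IL-4, or 53.59 and 62 FPKM. Its log2 ratio was 0.21 (0.10 to 0.32), and it was not called. Max exceeded 91% of the listed genes in each library (91.5% in NT and 91.9% in IL-4). Myc exceeded 45.3% of the listed genes in NT and 66.7% in IL-4, so its level went from below the middle of the listed genes to above it.

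The repressors that share Max had lower or near-equal counts in the IL-4 library. Mnt (chromosome 11, 74830806 to 74845725), the broadly expressed antagonist of Myc, had 1661 counts in NT and 1193 in IL-4, or 32.38 and 22.8 FPKM. Its log2 ratio of -0.51 (-0.61 to -0.40) was below the threshold in size. Mxi1 (chromosome 19, 53310128 to 53373293) had 762 and 637 counts, a log2 ratio of -0.29 (-0.44 to -0.13). Mxd1 (chromosome 6, 86647044 to 86669234), the antagonist known from differentiating myeloid cells, had 138 and 111 counts, and the interval of its log2 ratio of -0.34, from -0.72 to 0.03, included 0. Mxd4 (chromosome 5, 34176580 to 34187710) had 157 and 166 counts, a log2 ratio of 0.05 (-0.27 to 0.38). None of these 4 was called, so among the Mxd genes and Mnt the lower values of Mnt and Mxi1 were the ones beyond counting error. Mxd3, an Mxd gene outside the chosen members, had 377 and 379 counts, although its locus overlaps the abundant gene Prelid1. The annotated loci of Mxd1, Mxi1 and Mga overlap Gm38850, Gm30541 and Gm13998 in that order. Any effect on their counts was not tested.

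Mga (chromosome 2, 119872503 to 119970129) had 617.41 counts in NT and 478.82 in IL-4, a log2 ratio of -0.39 (-0.57 to -0.22), and was not called. Its sign turned once genes of like length were taken as the reference. Mga had the longest transcripts of the members, at 13931 bases, and Mxd4 had the shortest, at 1194. The 200 genes nearest in length had a median log2 ratio of -0.59 for Mga and 0.17 for Mxd4. Whether length itself plays a part was not tested. Less this median, Mga was at 0.20 (0.03 to 0.38). On the same scale Mnt was at -0.37 (-0.48 to -0.26), Mxi1 at -0.07 (-0.22 to 0.09), Mxd1 at -0.16 (-0.54 to 0.21) and Mxd4, which changed sign, at -0.12 (-0.45 to 0.20). Mnt was therefore the repressor whose lower value stood beyond counting error with and without the length trend. Myc kept its call at 1.51 (1.19 to 1.85), while Max was at 0.11, with an interval from -0.01 to 0.22 that included 0.

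**Figure D2:**
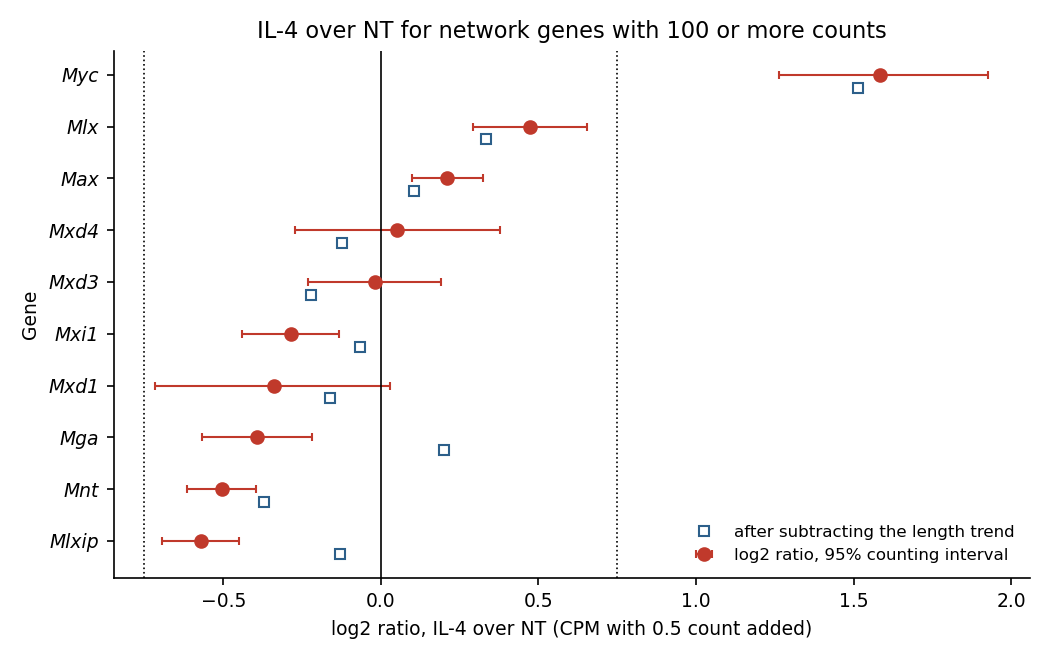
Log2 ratio of IL-4 over NT for the network genes with at least 100 counts over both libraries, with exact 95% counting intervals (red), and the same ratio with the length trend subtracted (blue squares). Dotted lines mark 0.75 in either direction. Myc at 1.59 is the only gene past them, and the blue square of Mga lies on the other side of 0 from its red point.

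The order of the levels changed at Myc and Mlx. In the NT library the FPKM order was Max, Mnt, Mlx, Mxi1, Mxd4, Mga, Myc, Mxd1, Mycl and Mycn, and the Poisson intervals of the neighbours Mxi1 and Mxd4, Mga and Myc, and Mycl and Mycn overlapped. In the IL-4 library the order was Max, Mlx, Mnt, Mxd4, Myc, Mxi1, Mga, Mxd1 and Mycl, and the intervals of Mxd4 and Myc, and of Myc and Mxi1, overlapped. Myc was thus level with Mga in NT cells (3.84 and 3.95 FPKM) and level with Mxd4 and Mxi1 after IL-4 (11.57, 12.51 and 11.04 FPKM).

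Set against Max within each library, a ratio that needs no scaling, Myc went from 7.17% of the Max FPKM in NT to 18.7% in IL-4. The reads of Myc relative to those of Max differed by 1.38 on the log2 scale between libraries (95% exact interval 1.03 to 1.73). Mnt went the other way, from 60.4% to 36.8% of Max, a difference of -0.72 (-0.87 to -0.56). The differences were -0.60 (-0.81 to -0.40) for Mga, -0.55 (-0.94 to -0.16) for Mxd1, -0.50 (-0.69 to -0.31) for Mxi1 and -0.16 (-0.50 to 0.19) for Mxd4, and they carry no correction for length. Relative to Max, Mnt, Mga, Mxd1 and Mxi1 thus had fewer reads in the IL-4 library, and the interval of Mxd4 included 0. With the length trend subtracted Mga turned, since its log2 ratio of 0.20 then lay above the 0.11 of Max. On that scale Mnt (-0.37), Mxd1 (-0.16) and Mxi1 (-0.07) stayed below Max but closer to it. No interval was computed for these adjusted differences from Max, so whether they lie beyond counting error was not tested. The summed FPKM of the 5 repressors was 64.6 ± 1.37 (counting SE) in NT and 51.5 ± 1.28 in IL-4. This sum was 16.8 times the FPKM of Myc in NT and 4.45 times in IL-4. The sum itself changed by -20.4%, while the FPKM of Myc went from 3.84 to 11.57. These are RNA levels, with no correction for the length trend. With Mxd3 included the sum was 23.7 and 6.71 times that of Myc.

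**Figure D3:**
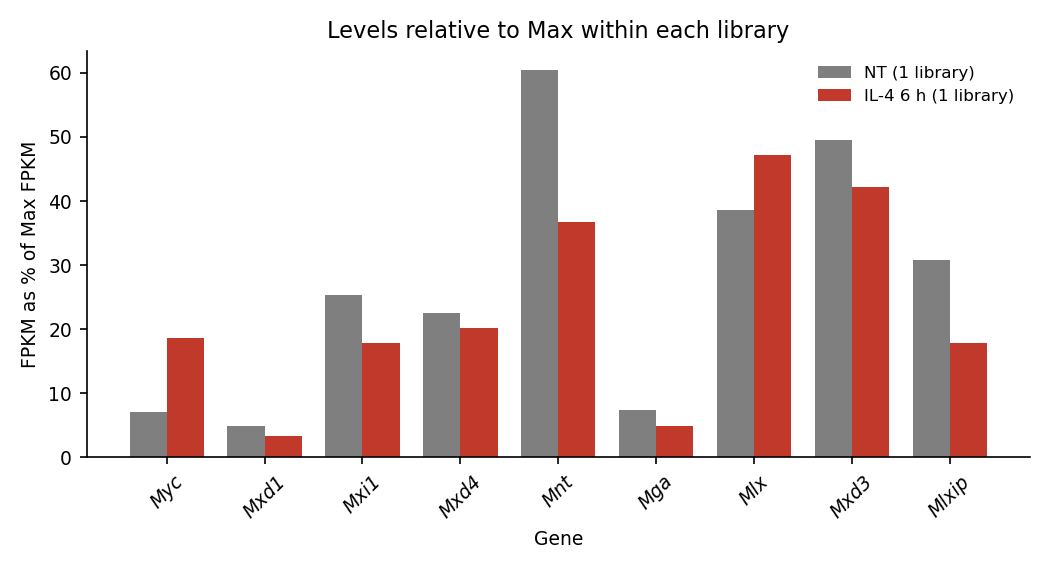
FPKM of each network gene as a percent of the Max FPKM in the same library, for genes with at least 100 counts over both libraries (grey, NT, and red, IL-4, 1 library each, no replicate error). Myc goes from 7.17% to 18.7% and Mnt from 60.4% to 36.8%.

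On the Mlx side of the network the subunits had opposite signs. Mlx (chromosome 11, 101086707 to 101092207) had 433 counts in NT and 613 in IL-4, or 20.71 and 29.28 FPKM, a log2 ratio of 0.47 (0.29 to 0.65). Mlxip, which encodes its glucose-sensing partner MondoA, had 1340.21 and 919.44 counts, a log2 ratio of -0.57 (-0.69 to -0.45). Neither was called, and less the length trend Mlx was at 0.33 (0.15 to 0.52) and Mlxip at -0.13 (-0.25 to -0.01). Mlxipl, which encodes ChREBP, had 4 counts in NT and 1 in IL-4. Txnip, a glucose-induced target of these dimers, had 2160 and 2441 counts (log2 ratio 0.15), and its companion Arrdc4 had 386 and 429 (0.12). Neither target was called, and Pklr, the remaining gene of that list, was listed in neither library. The locus of Mlx overlaps Psmc3ip, which had 17 and 16 counts. The length of Mlx, weighted over its transcripts, was 1897 bases in NT and 1863 in IL-4.

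Genes that Myc is known to activate were examined next, as 32 genes of ribosome production, metabolism and growth. Of these 32, 2 were called higher (6.25%, beside 4.07% of all tested genes) and 0 lower. Tfrc, the transferrin receptor that brings in iron, rose from 2148 to 9144 counts, or from 39.14 to 163.36 FPKM, a log2 ratio of 2.06 (1.99 to 2.13). Slc7a5, the light chain of a transporter of large amino acids, rose from 145 to 461 counts, or from 3.71 to 11.57 FPKM, a log2 ratio of 1.64 (1.37 to 1.92). Both kept their calls where variation of 0.2 between animals was assumed, and lost them with 0.4.

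Most of the remaining growth genes had small ratios above 0. The log2 ratio was above 0 in 28 of the 32, with a median of 0.43, beside 50.2% of the genes with at least 200 reads above 0 (31 of the 32 had that many) and 45.3% of all tested genes. The 4 below 0 were Cdc25a (-0.39), Cad (-0.20), Polr1b (-0.15) and Prmt5 (-0.01). Odc1, the rate-limiting enzyme of polyamine synthesis, had 300.05 counts in NT and 449.24 in IL-4 (0.55, 0.34 to 0.77). Ncl, which encodes the nucleolar protein nucleolin, had 3046.55 and 3659.03 counts (0.24, 0.17 to 0.31). At a BH-adjusted p of at most 0.05 of any size, 26 of the 32 passed as higher and 0 as lower. Of the genes with at least 200 reads, 24.2% passed as higher and 27% as lower. These shares are not matched in depth, since some of the 32 had far more reads (Eif4a1, 9292 and 13891 counts). The list was chosen with earlier results of these data known, and the rule of any size was added after the data were seen. Once variation of 0.1 between animals was assumed, 4 of the 32 passed as higher (background 4.44%). Apart from the largest ratios, the differences that passed at any size are therefore beyond counting error only. The median was 0.43 with the length trend subtracted as well.

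**Figure D4:**
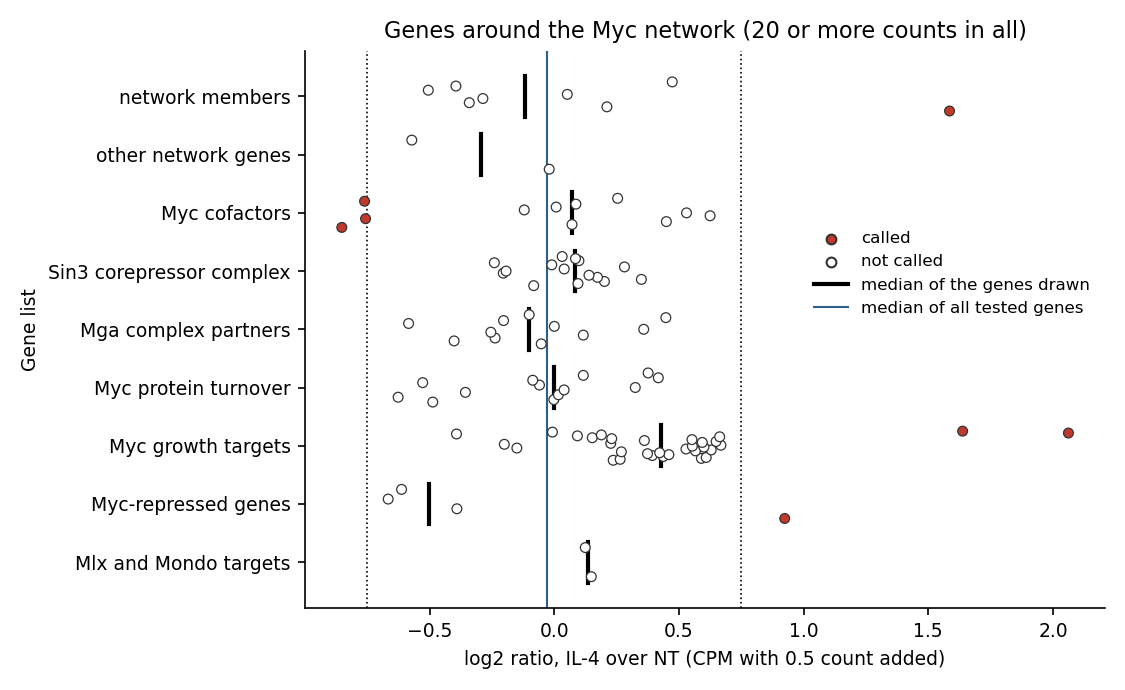
Log2 ratio of IL-4 over NT for the genes of each list with at least 20 counts over both libraries, filled where called, with the median of the genes drawn (black bar), the median of all tested genes (blue line) and the thresholds of 0.75 (dotted). The growth targets of Myc crowd to the right of the blue line, with Tfrc and Slc7a5 past the threshold, and the 3 called cofactors sit just past it on the left.

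Of 5 genes that Myc is known to repress, 1 was called higher and 0 lower, beside 4.07% and 6.28% of all tested genes. With a fold over 1.5 and a BH-adjusted p of at most 0.05 instead, 1 was called higher and 2 lower. By that rule 754 of all 15593 tested genes were called higher and 1207 lower. At any size with a BH-adjusted p of at most 0.05, 1 of the 5 passed as higher and 3 as lower. Of all genes with at least 200 reads, 24.2% and 27% passed so, and this rule covers counting error only. Cdkn1a, which encodes the cell cycle inhibitor p21, rose from 465 to 900 counts (log2 ratio 0.92, 0.76 to 1.09). Cdkn1a lost its call where variation of 0.2 or 0.4 between animals was assumed, and at a log2 threshold of 1. Gadd45a, a stress-response gene, had 380 and 244 counts (-0.67), Ndrg1 had 645 and 430 (-0.61), and the cell cycle inhibitor Cdkn1b had 364 and 283 (-0.39). None of these 3 was called, although Gadd45a was called lower at -0.86 with the length trend subtracted. Cdkn2b had 6 and 8 counts. Thus the best counted genes of this list had ratios on both sides of 0.

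The cofactors that work with the network were mostly not called. Of 11 cofactors of Myc, 0 were called higher and 3 lower, beside 4.07% and 6.28% of all tested genes. Trrap, a scaffold of acetyltransferase complexes, fell from 859 to 485 counts (log2 ratio -0.85), Bptf, a chromatin remodelling subunit, fell from 1152 to 693 (-0.76), and Ep400, an ATPase of the Tip60 complex, fell from 1172 to 707 (-0.76). Their transcripts are 10708 to 12476 bases long, and with the length trend subtracted the ratios were -0.28, -0.24 and -0.25, none past the threshold. With TMM or median-of-ratios scaling only Trrap was called, and none of the 3 was where variation of 0.2 or 0.4 between animals was assumed, with FPKM plus 1 or at a log2 threshold of 1. The remaining 8 cofactors had log2 ratios from -0.12 to 0.62. At any size with a BH-adjusted p of at most 0.05, 4 of the 11 passed as higher and 3 as lower. Of all genes with at least 200 reads, 24.2% and 27% passed so, by counting error only. At a fold over 1.5 with BH at most 0.05, 1 cofactor was called higher and 3 lower, beside 754 and 1207 of all 15593 tested genes.

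Among 15 genes of the Sin3 corepressor complex, which the Mxd proteins recruit, 0 were called, with log2 ratios from -0.24 to 0.35. Among 11 partners of Mga in its Polycomb-type complex 0 were called (-0.58 to 0.45), and among 13 genes that control the stability of Myc protein 0 were called (-0.63 to 0.42). By the same rule 4.07% of all tested genes were called higher and 6.28% lower. At any size with a BH-adjusted p of at most 0.05, 2 of the Sin3 genes passed as higher and 2 as lower, 2 and 1 of the Mga partners, and 2 and 4 of the stability genes. Among all genes with at least 200 reads, 24.2% passed as higher and 27% as lower, and the rule covers counting error only. The medians of these 3 lists were 0.09, -0.10 and 0.00.

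Over the 2 libraries, the genes whose pair of levels was nearest to that of Myc were Aldh1a2, a retinal dehydrogenase (98 and 300 counts), Cytip, a regulator of leukocyte adhesion (97.87 and 275.3), and Ripk2, a kinase of the Nod receptors (116 and 291). Their distances from Myc were 0.0841, 0.195 and 0.213 in log2 CPM. With only 2 points for each gene, this likeness describes these libraries and nothing further.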

How the data were processed

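Sequencing of total RNA was done at BGI (Illumina HiSeq). The authors used Bowtie for mapping, to GRCm38/mm10, and RSEM for gene levels (versions not stated). The deposited tables hold expected counts, which are not scaled and need not be whole, FPKM computed by the authors, and a transcript length in bases. A gene absent from a table was set to 0. Of 15623 gene numbers, 15587 were matched to a symbol through RefSeq (GRCm38.p6).

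Ratios are log2 of CPM with 0.5 count added. Counts were rounded for an exact conditional binomial test, two-sided by doubling the smaller tail, with BH adjustment over 15593 genes with a read. The thresholds for calls are those the study used for its IL-4 gene list. Its methods also give a fold over 1.5 with a false discovery rate of 0.05, which was run as an alternative. Intervals are exact 95% (Clopper-Pearson, or Poisson for FPKM) and cover counting error alone, with no variation between animals. They treat reads as independent, which PCR copies of a molecule are not, so even counting error may be understated. For the length trend, each gene was set against the median of its 200 neighbours in length that had at least 200 reads. Ratios to Max are conditional odds ratios of reads.

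Members, lists and the length alternative were chosen with earlier results of these data known. Named genes are the members, Mxd3, Mlxip, Mlxipl, up to 4 called genes of each pathway list with at least 50 counts, by size, Odc1, Ncl, Txnip, the 3 genes nearest to Myc and the M2 controls with most reads (not detailed here). Other genes were named after their values were seen. On simulated libraries of 15162 genes, 100% of 200 genes changed by a log2 of 1.5 or 2 were called, and 31 unchanged genes. The simulation held counting error only, and its changed genes were picked from those with at least 50 expected NT counts. It therefore does not show how the calls fare with variation between animals or at low counts. The statistics used scipy 1.17.1 with numpy 2.4.6 and pandas 2.3.3 in Python 3.11.15, edgeR 4.0.16 (TMM, exact test) and DESeq2 1.42.0 (size factors) in R 4.3.3, and matplotlib 3.10.9 for plots. Alternatives were other scalings, FPKM, low-count filters, thresholds, assumed variation between animals, the length trend and whole counts only.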

Additional observations from a re-analysis of the deposited data

How the results depend on the processing

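No paired analysis was possible because only 1 library stands for either condition, and no library could be left out. Over the members' log2 ratios, 1 value under an alternative lost its call (Myc) and 5 changed sign; no other member was called under any alternative. Mycn (1 count) moved from -1.61 to -0.38 and -0.04 with FPKM plus 0.1 and plus 1, and Mycl was at 0 with median-of-ratios scaling. With an assumed coefficient of variation of 0.4, 0 members were called and Myc, still at 1.59, lost its call. Mycl (8 counts in each library) was at 0.00904 with TMM scaling, 0.0473 with FPKM plus 0.1 and 0.012 with FPKM plus 1, and with the length trend subtracted Mxd4 was at -0.12 and Mga at 0.20. Myc ran from 1.38 (FPKM plus 1) to 1.62 (TMM). The 26 growth targets passing at any size were 4, 2 and 0 with an assumed coefficient of 0.1, 0.2 and 0.4. Of all genes with at least 200 reads, 4.44%, 1.28% and 0.248% passed as higher at these coefficients. At a fold over 1.5 with BH at most 0.05, 10 growth targets were called higher, as were 754 of all 15593 tested genes. The 3 called cofactors were 1 with TMM or median-of-ratios scaling, 2 with FPKM plus 0.1, and 0 with FPKM plus 1, a log2 threshold of 1, a coefficient of 0.2 or 0.4, or the length trend. Over all genes, 635 higher and 979 lower became 391 and 399 with FPKM plus 1, 408 and 476 with a log2 threshold of 1, 390 and 423 with a coefficient of 0.2, 65 and 8 with 0.4, and 481 and 644 with whole counts only, which leave out Mga. A minimum-likelihood p, added after seeing the data, gave 637 and 1053. Scaling moved the median of all genes by at most 0.0368. The cause of changes not set by the alternative's construction was not tested. Depth limits Mycn, Mycl and Mlxipl.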
